A study of Rattus norvegicus with 12 samples.

Results

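The Wnt ligands, receptors and modulators carried by the array were examined in rat cerebellar neuron-enriched cultures exposed to acetamiprid (ACE), a neonicotinoid insecticide that binds nicotinic acetylcholine receptors, and in control cultures. Members were chosen by a rule on gene names: every probe, control spots apart, for a Wnt, Fzd (Frizzled), Sfrp, Dkk, Rspo (R-spondin), Dvl (Dishevelled) or Tcf7 family gene, or for Lrp5, Lrp6, Axin1, Axin2, Ctnnb1, Lef1 or Wif1. They were 53 genes, of 26214 gene names on the array, read by 64 of its 30367 probes. By role they were 19 Wnt ligands, 4 R-spondins, 11 receptors, 10 secreted modulators, 5 intracellular components and 4 nuclear factors.

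Wnt proteins are secreted lipid-modified ligands that bind Frizzled receptors, and with the co-receptors Lrp5 and Lrp6 they free beta-catenin (Ctnnb1) from a destruction complex built on Axin, so that it can act with Tcf and Lef factors on target genes. R-spondins keep Frizzled receptors on the cell surface, whereas Sfrp proteins and Wif1 bind Wnt ligands and most Dkk proteins block Lrp5 and Lrp6. In the cerebellum, Wnt1 is known for its role in forming the midbrain-hindbrain border and Wnt7a for the remodelling of mossy fibre axons onto granule neurons.

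Each group held 6 samples, taken at 16 days in vitro (DIV) from cerebella of Sprague-Dawley neonates 1 day old. The ACE cultures received 1 µM acetamiprid from 2 DIV on, with dimethyl sulfoxide as vehicle, and the control cultures received the vehicle alone at the same 0.001%. All of them were grown with 1% fetal bovine serum for the first 8 days and without serum afterwards. Per the study's methods, the control and ACE cultures of an experiment came from 1 lot of cells pooled from neonates of 1 litter, so a pair is a litter and no value belongs to a single animal. The total RNA of each culture was measured on a 1-colour Agilent array, and every value below is the log2 of the background-corrected signal after quantile normalisation, with ACE minus control as the difference. In these mixed cultures fewer cells of a type and less RNA per cell cannot be told apart.

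Across all probes, the arrays differed in brightness, with a 75th percentile of the processed signal between 1803 and 4384 and 75.4% to 91.0% of spots well above background. Control and ACE arrays of a pair shared a slide, always with the control at place 1 and ACE at place 3, so that exposure and place on the slide cannot be told apart. Arrays of a pair correlated in their deviations from the group means (r of 0.449 to 0.912), and pair 1, read with an older software version, stood apart in several members described below. The markers of granule neurons, Purkinje cells, astrocytes, oligodendrocytes and microglia were nearly all bright enough to be tested (39 of 40 genes). So were 8 of 8 skeletal muscle, 8 of 8 meningeal fibroblast and 7 of 8 choroid plexus genes. These counts therefore say nothing on how enriched in neurons the cultures were. The summed signal of the astrocyte list lay between 74612 and 156774 in control and between 70982 and 149457 in ACE, and its mean log2 level was lower in ACE in 6 of 6 pairs, by 0.052 on average. The granule neuron, Purkinje cell, oligodendrocyte, microglia and meningeal fibroblast lists were on average higher in ACE, by 0.023, 0.019, 0.014, 0.045 and 0.036. They were higher in 2, 5, 3, 3 and 2 of 6 pairs. Without pair 1 the granule neuron and microglia differences were -0.041 and -0.016. Without pair 4 the meningeal fibroblast difference was -0.034. Skeletal muscle markers were on average 1.23 lower in ACE and higher in 1 of 6 pairs, but 0.63 lower without pair 2, a setting tried after the values were seen, with sums of 24566 to 109831 in control and 28954 to 63050 in ACE. The choroid plexus list was on average 0.28 lower in ACE and higher in 3 of 6 pairs, with sums of 8248 to 52321 in control and 4232 to 25307 in ACE, and it was 0.14 lower without pair 5, 0.15 lower without pair 6 and 0.44 lower without pair 1. The endothelial list, of which Cldn5, Tek and Slco1a4 were too dim to be tested, was 0.20 lower but 0.0098 higher without pair 5, with sums of 708 to 1431 in control and 664 to 1226 in ACE. The part of these cell types in the differences below was not tested.

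In several genes described below the probes of a gene gave different results, so the first 30 of the 60 bases of the Lrp6 and Lef1 probes are given, as the files list them on rat build rn4. Tcf7l1 and Lrp6 each had an upstream and a downstream probe, named by their place along the transcript. Lrp6 lies on the minus strand of chromosome 4, and its probes span chr4:171337902-171337961 and chr4:171337138-171337197.
Lrp6 upstream: gaactatgaaagctgccccccttctccata
Lrp6 downstream: gagacccgttttgctaagagccatgattta
The upstream Lrp6 probe was richer in G and C, at 50% against 35.0% for the downstream one.

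Lef1 had 3 probes on the plus strand of chromosome 2, and a pair of them cover nearly the same stretch, chr2:228659730-228659789 and chr2:228659738-228659797. They overlap by 52 bases and differ at 4 of them, listed from the 5′ end of the first probe as A19G, C40T, G46T and C52G. They are shown because the same stretch of a gene is read through different letters. The capital marks the first of these differences, the only one within the bases shown.
Lef1 first: ttatcccatcacgggtggAttcaggcaagc
Lef1 second: tcacgggtggGttcaggcaagcctacccat
Lef1 downstream: attatgaattagcgcggaaagaaagacagc
The downstream Lef1 probe spans chr2:228668698-228668757.

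Of the 64 member probes, 43 were well above background on all 12 arrays and 4 on none, the latter being both Dkk1 probes, Dkk2 and Rspo4. 52 probes for 44 genes were bright enough to be tested, that is, above the 20th percentile of their array on at least 7 arrays. Beside those 4, the probes left out were those of Wnt3a, Wnt8a, Wnt8b, Wnt10a, Fzd4 and Fzd5 and the dimmer probes of Wnt9b and Rspo2. Each of these 8 was well above background on at most 2 arrays of a group, with Wnt3a, a canonical ligand, on 2 in each, Wnt10a on 2 in control and 1 in ACE, and the norrin receptor Fzd4 and the ligands Wnt8a and Wnt8b on 1 in each. The members were detected about as often as the array as a whole, since 66.5% of all probes and 67.2% of member probes were well above background on every array.

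None of the 52 member probes passed limma's paired test after Benjamini-Hochberg adjustment, and the lowest adjusted p among them was 0.164. Of all 23796 probes tested 0% passed, and the lowest adjusted p was 0.141. Before adjustment, 7 member probes (13.5%) had a limma p under 0.05, 3 higher and 4 lower in ACE, against 16.6% of all probes, 6.9% higher and 9.73% lower. The members' share was thus below that of the array in this fit, whereas with normexp it was 19.2% (10 probes) against 18.05% and with the pairs as a random block 17.3% (9 probes) against 16.8%. The 7 are described as values that do not stand after adjustment. Scaling each array by its 75th percentile instead gave 8 member probes (15.4%, against 17.7% of all probes), 1 higher and 7 lower. The share of higher ones among all probes at that threshold went from 41.5% to 19.1%. Under that scaling the 4 lower probes and Wnt2b kept their direction with an unadjusted limma p of 0.00393 to 0.0454, and Sfrp4 and Axin2 were still higher but no longer under 0.05. By the exact two-sided signed-rank test, which needs the same direction in all 6 pairs to go under 0.05 (smallest p 0.03125), 3 of 52 member probes passed (5.77%), 1 higher and 2 lower, against 11.6% of all probes, 4.72% higher and 6.86% lower. The median difference over the 52 was 0.0088, against -0.0050 over all probes tested, and the median size was 0.071 against 0.062. A 1.5-fold change was reached by 1 member probe, for Rspo2, against 1.72% of all probes. The control and ACE values overlapped in all 52, and over all probes they were apart in 3 of 23796 (0.0126%).

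**Figure D1:**
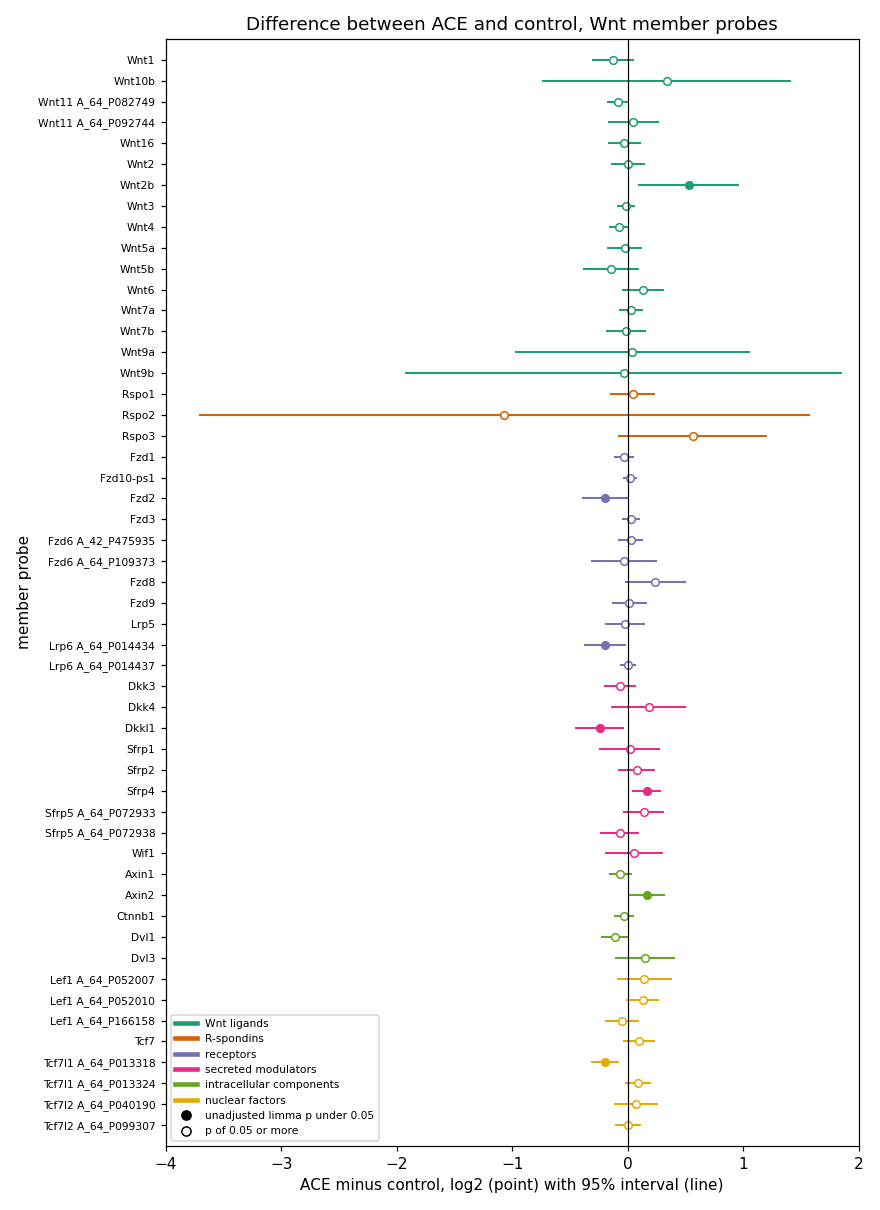
Difference between ACE and control (log2, horizontal axis) for the 52 tested member probes, with the 95% interval from limma as a line, grouped by role in colour. Filled points are the 7 probes with an unadjusted limma p under 0.05, and the widest intervals belong to the dim or unstable probes of Rspo2, Wnt9b, Wnt10b and Wnt9a.

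Among the Wnt ligands, 16 probes for 15 genes were tested, 7 higher and 9 lower in ACE, and 1 reached an unadjusted p under 0.05. Wnt2b, a canonical ligand, read 2.84, 3.70 and 4.59 (lowest, median and highest) in the 6 control arrays and 3.30, 4.27 and 5.85 in the 6 ACE arrays. It was higher in ACE in 5 of 6 pairs, by 0.53 ± 0.18 (SE, n = 6 pairs; exact signed-rank p = 0.09375, unadjusted limma p = 0.0229, adjusted limma p = 0.234). This probe was dim, well above background on 3 control and 4 ACE arrays, and with a fitted background (normexp) the difference was 0.13, short of the unadjusted threshold of 0.05. Without pair 4 or without pair 5 it was 0.50 and 0.48, with an unadjusted limma p of 0.0564 and 0.0614.

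The ligands fixed for their role in cerebellar wiring showed little difference. Wnt7a read 10.27, 10.75 and 11.24 in control and 10.36, 10.69 and 11.30 in ACE, and its difference of 0.031 had a 95% interval of -0.064 to 0.13. Wnt3, which Purkinje cells are known to express, read 8.39, 8.86 and 9.30 in control and 8.44, 8.86 and 9.30 in ACE, with an interval of the difference from -0.085 to 0.056. For Wnt5a, a ligand of the beta-catenin-independent branch, the values were 7.67, 8.41 and 8.50 in control and 7.91, 8.36 and 8.51 in ACE, with an interval of -0.17 to 0.12. Wnt7b read 5.32, 6.05 and 6.32 in control and 5.20, 5.99 and 6.54 in ACE, with an interval of -0.18 to 0.15. In each of these 4 genes the pairs split 3 to 3 or 2 to 4, and the sign of such differences moved with the settings. The 95% intervals of all 4 lay within 0.18 of zero on the log2 scale, well inside the 0.58 that a 1.5-fold change requires.

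Wnt11 had a pair of probes 238 bases apart, named here after their values were seen. The upstream one was lower in ACE in 6 of 6 pairs (exact signed-rank p = 0.03125), by 0.081 (unadjusted limma p = 0.065), from 5.84, 6.13 and 6.83 in control to 5.77, 6.05 and 6.61 in ACE. The downstream one was higher in 3 pairs and lower in 3, with a difference of 0.048. That interval includes the upstream difference, so the 2 probes are not shown to disagree. Without pair 4 both were lower in ACE, the upstream one at -0.082 and the downstream one at -0.043.

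Several Wnt genes lie side by side in the rat genome, and 4 such pairs of neighbours, each read by its own probes, are given by the number of arrays on which they were detected. On chromosome 7 the probe of Wnt1 was well above background on 12 arrays and that of Wnt10b, 20.6 kb away, on 6. On chromosome 9, Wnt6 was well above background on 12 arrays and Wnt10a, 19.7 kb away, on 3. On chromosome 10, Wnt3 and the brighter Wnt9b probe, 84.0 kb apart, were both above background on 12 arrays, and Wnt3a and Wnt9a, 85.4 kb apart, each on 4. These distances are between probes on build rn4, and the pairs were picked as known neighbours without regard to their values in ACE.

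Wnt9b, chosen after its values were seen, was steady on 10 arrays and high on 2. Its brighter probe read 8.78 in control 5 and 8.33 in ACE 6, whereas the other control arrays reached at most 6.10 and the other ACE arrays at most 5.89. Neither excursion was shared by the other array of its pair, and the difference of -0.036 had a 95% interval of -1.92 to 1.85.

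R-spondins gave 3 tested probes and none at an unadjusted limma p under 0.05. Rspo1 read 6.74, 7.49 and 7.70 in control and 7.05, 7.48 and 7.74 in ACE, a difference of 0.044 with a 95% interval of -0.14 to 0.23. Rspo2 and Rspo3 are named after their values were seen. Rspo2 was the member with the widest difference, -1.07 (exact signed-rank p = 0.844), and it came from 1 pair. Control 6 read 8.79 and ACE 6 read 1.5, while the remaining control arrays reached at most 4.45 and the remaining ACE arrays lay between 3.58 and 4.46. Rspo3 read 2.40, 3.52 and 4.01 in control and 3.06, 4.01 and 4.48 in ACE, higher in 5 of 6 pairs by 0.57 (exact signed-rank p = 0.156, unadjusted limma p = 0.0733), on a probe well above background on 2 control and 3 ACE arrays. Pair 4 alone differed by 1.67, and without it, a setting tried after the values were seen, the difference was 0.34. Rspo3 went under an unadjusted limma p of 0.05 with the pairs as a random block, in pairs 4 to 6 and without pair 3.

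Receptors gave 11 tested probes for 9 genes, all 11 well above background on every array, with 2 at an unadjusted p under 0.05, both lower. Fzd2, a Frizzled receptor, read 8.70, 9.15 and 10.12 in control and 8.73, 8.87 and 10.03 in ACE. It was lower in 5 of 6 pairs, by 0.20 ± 0.079 (SE, n = 6 pairs; exact signed-rank p = 0.09375, unadjusted limma p = 0.0445, adjusted limma p = 0.289). Leaving out pair 1, 2, 4, 5 or 6 gave an unadjusted limma p between 0.0593 and 0.116. The pair 1 arrays, at 10.12 and 10.03, stood above all the others in their groups.

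The upstream probe of Lrp6, the co-receptor shown above, read 9.39, 9.93 and 11.12 in control and 9.37, 9.57 and 11.20 in ACE. It was lower in 5 of 6 pairs, by 0.20 ± 0.071 (SE, n = 6 pairs; exact signed-rank p = 0.09375, unadjusted limma p = 0.0299, adjusted limma p = 0.255). Without pair 2, 4, 5 or 6 the unadjusted limma p was 0.0677 to 0.0807, and it was 0.0662 with the pairs as a random block. In pairs 4 to 6 the difference was -0.31. The downstream probe read 8.79, 9.03 and 9.17 in control and 8.80, 9.04 and 9.18 in ACE, with a difference of 0.0026 and a 95% interval of -0.054 to 0.059. The lower value of Lrp6 was therefore seen by 1 of its 2 probes, and their average differed by -0.097, with an unadjusted limma p of 0.0409.

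Lrp5, the related co-receptor, read 8.57, 8.85 and 9.18 in control and 8.67, 8.77 and 9.26 in ACE, with a 95% interval of the difference from -0.19 to 0.14. Fzd3, a Frizzled receptor needed for axon tract formation, was the steadiest tested member between pairs. It read 9.97, 10.11 and 10.21 in control and 10.04, 10.13 and 10.23 in ACE, with an interval of -0.041 to 0.10. Fzd8, a Frizzled receptor named after its values were seen, had the widest difference among the receptors. It read 6.80, 6.999 and 7.57 in control and 7.03, 7.26 and 7.68 in ACE, higher in 5 of 6 pairs by 0.24 (exact signed-rank p = 0.09375, unadjusted limma p = 0.0614). It went under 0.05 with normexp, with the pairs as a random block and without pair 3, and its difference was 0.14 without pair 6. Fzd4, the receptor for norrin, was well above background on 1 array of each group and was not tested. Fzd10-ps1, listed as Fzd10 by RefSeq and named after its values were seen, was higher in ACE in 6 of 6 pairs (exact signed-rank p = 0.03125) by only 0.018 (unadjusted limma p = 0.436). Its control values were 13.01, 13.30 and 13.43 and its ACE values 13.06, 13.31 and 13.43, so its groups nearly coincided.

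**Figure D2:**
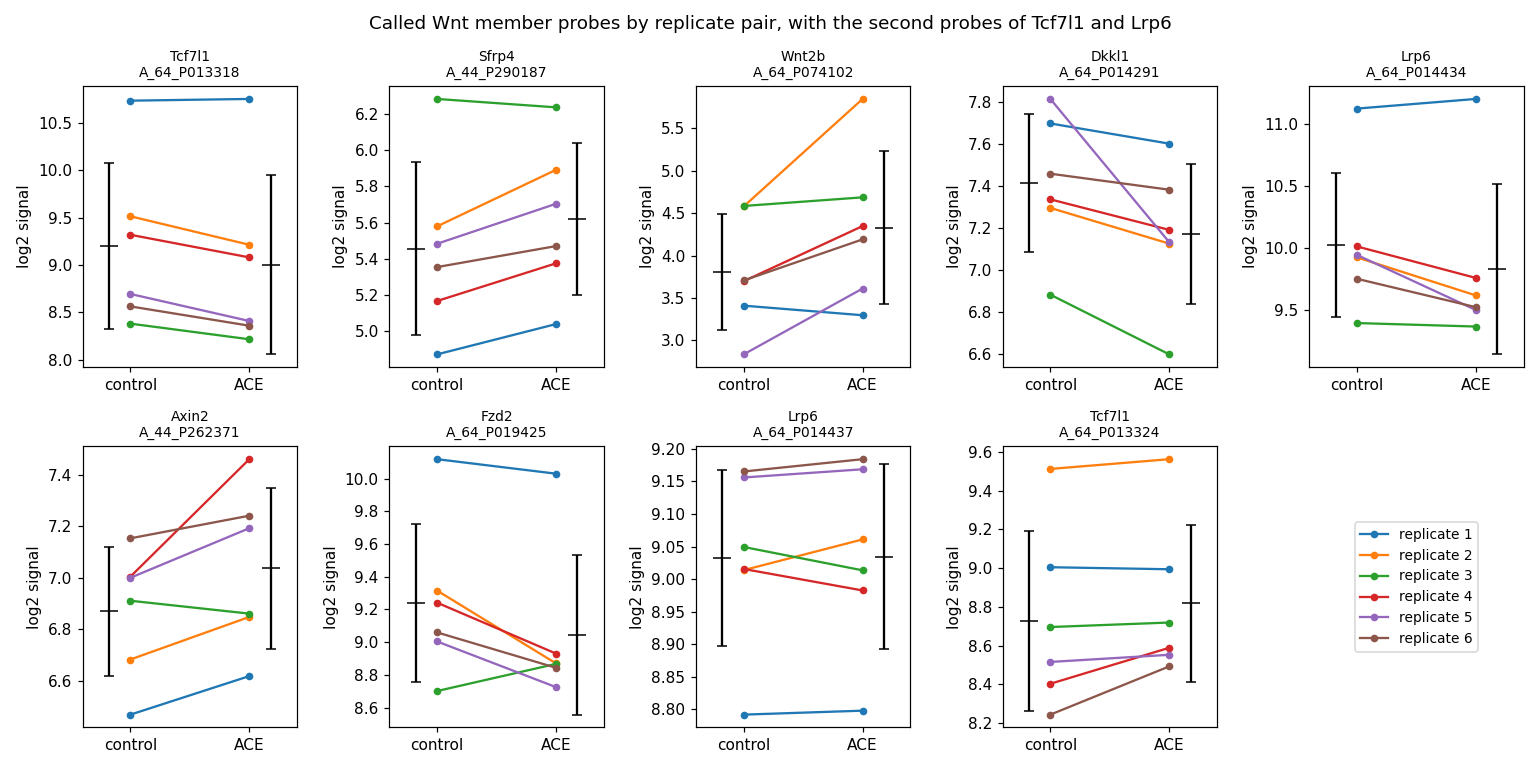
Log2 signal in control and ACE for the 7 member probes with an unadjusted limma p under 0.05 and for the second probes of Lrp6 and Tcf7l1. Each coloured line joins the 2 arrays of a replicate pair, and the black bars give the group mean and SD (n = 6), which overlap in every panel.

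Of the secreted modulators, 9 probes for 8 genes were tested, with 1 higher and 1 lower at an unadjusted p under 0.05. Dkkl1, which carries the Dickkopf family name and is known chiefly from the sperm acrosome, read 6.88, 7.40 and 7.81 in control and 6.60, 7.16 and 7.60 in ACE. It was lower in ACE in 6 of 6 pairs (exact signed-rank p = 0.03125), by 0.24 ± 0.084 (SE, n = 6 pairs; unadjusted limma p = 0.0256, adjusted limma p = 0.242). The single pair differences ran from -0.68 in pair 5 to -0.076 in pair 6, and without pair 5 the difference was -0.15. Without pair 3 the unadjusted limma p was 0.0622, and in pairs 4 to 6 the difference was -0.30 with a p of 0.139.

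Sfrp4, a secreted Wnt-binding protein, read 4.87, 5.42 and 6.28 in control and 5.04, 5.59 and 6.24 in ACE. It was higher in 5 of 6 pairs, by 0.16 ± 0.048 (SE, n = 6 pairs; exact signed-rank p = 0.0625, unadjusted limma p = 0.0130, adjusted limma p = 0.203). Under the 75th percentile scaling the difference was 0.058, short of the unadjusted threshold, and with normexp it was 0.075 and still under it. Its relatives Sfrp1 and Sfrp2, fixed for their role, were not called, and no test of their difference from Sfrp4 was run. Sfrp1 read 3.98, 4.87 and 6.36 in control and 4.13, 4.83 and 6.18 in ACE, lower in 5 pairs and higher by 0.60 in the other, and without pair 5 its difference was -0.099 in place of 0.017, with an unadjusted limma p of 0.0307. Sfrp2 read 7.61, 8.97 and 9.29 in control and 7.81, 9.04 and 9.38 in ACE, higher in 5 of 6 pairs by 0.077, with a 95% interval of -0.075 to 0.23. Without pair 2 the difference of Sfrp2 was 0.14, with an unadjusted limma p of 0.0112. The probes of Sfrp5, named after their values were seen, differed by 0.14 and -0.069, the former higher in 5 of 6 pairs and the latter in 2.

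Dkk3, a divergent Dickkopf protein abundant in brain, was bright in all cultures. It read 11.65, 12.14 and 12.95 in control and 11.43, 12.15 and 12.83 in ACE, lower in 5 of 6 pairs by 0.065 with a 95% interval of -0.19 to 0.065. Without pair 4 the difference was -0.11, with an unadjusted limma p of 0.0286. The Lrp-blocking relatives Dkk1 and Dkk2 were well above background on no array of either group.

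The intracellular components, 5 probes for 5 genes, were well above background on all arrays. Axin2, a scaffold of the destruction complex and itself a widely used target gene of beta-catenin signalling, read 6.47, 6.95 and 7.15 in control and 6.62, 7.03 and 7.46 in ACE. It was higher in 5 of 6 pairs, by 0.17 ± 0.063 (SE, n = 6 pairs; exact signed-rank p = 0.0625, unadjusted limma p = 0.0352, adjusted limma p = 0.267). The largest pair difference, 0.46, was that of pair 4, without which Axin2 differed by 0.11, with an unadjusted limma p of 0.0515. Leaving out pair 1, 2 or 5 gave an unadjusted limma p of 0.0680 to 0.0762, the 75th percentile scaling gave a difference of 0.091, and pairs 4 to 6 gave 0.25, both short of the threshold. Ctnnb1, beta-catenin itself, read 10.43, 10.52 and 10.73 in control and 10.37, 10.52 and 10.68 in ACE, with a 95% interval of the difference from -0.11 to 0.045. Axin1, Dvl1 and Dvl3 differed by -0.063, -0.11 and 0.15, each with an unadjusted limma p of 0.0593 or more. Dvl1 went under 0.05 with normexp, with the pairs as a random block, in pairs 4 to 6 and without pair 1, and the difference of Dvl3 was 0.051 without pair 4.

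The nuclear factors gave 8 probes for 4 genes. The upstream probe of Tcf7l1, a factor that represses target genes in the absence of beta-catenin, had the lowest p of all members. It read 8.38, 9.01 and 10.74 in control and 8.22, 8.74 and 10.76 in ACE. It was lower in 5 of 6 pairs, by 0.20 ± 0.047 (SE, n = 6 pairs; exact signed-rank p = 0.0625, unadjusted limma p = 0.00469, adjusted limma p = 0.164). With the pairs as a random block the unadjusted limma p was 0.137, and the average of the gene's probes differed by -0.053, with an unadjusted limma p of 0.126. With normexp the difference was -0.12 and still under 0.05. The downstream probe read 8.24, 8.61 and 9.51 in control and 8.49, 8.65 and 9.56 in ACE, and was higher in 5 of 6 pairs by 0.089 ± 0.042 (SE, n = 6 pairs; exact signed-rank p = 0.0625, unadjusted limma p = 0.0763). The 2 probes of Tcf7l1 thus differed in sign. In the value table that the authors deposited, the downstream probe gave 0.11 with an unadjusted limma p of 0.0434, so both signs then went under 0.05.

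Lef1 and Tcf7l2, the factors fixed for their role, were not called. The downstream Lef1 probe read 5.78, 6.28 and 6.64 in control and 5.97, 6.45 and 6.73 in ACE, a difference of 0.13 with a 95% interval of -0.0074 to 0.27. Without pair 3 or without pair 4 its difference was 0.16, with an unadjusted limma p of 0.0478 and 0.0407, and with the pairs as a random block that p was 0.0443. The difference was 0.037 under the 75th percentile scaling and 0.044 with normexp, both short of the unadjusted threshold. The overlapping Lef1 probes, named after their values were seen, differed by -0.049 in the first and 0.14 in the second, with unadjusted limma p of 0.420 and 0.182. With a pair left out the first ran from -0.11 (without pair 6) to -0.021 (without pair 1) and the second from 0.082 (without pair 5) to 0.22 (without pair 4). The first went under an unadjusted limma p of 0.05 without pair 6, lower, and the second without pair 4, higher. An overlapping Lef1 probe was also under it, lower, with the 75th percentile scaling. The brighter Tcf7l2 probe read 11.82, 12.13 and 12.64 in control and 11.89, 12.18 and 12.63 in ACE, with an interval of -0.10 to 0.10.

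The sequence around the start of transcription was searched for CTTTGAT, the letters that Tcf and Lef factors are known to favour, on both strands (ATCAAAG on the other). Of the 53 member genes, 37 had an entry among the RefSeq promoters of build GRCr8, from 250 bases before to 50 after the start, and 3 of them held the letters (8.11%), against 3.63% of all 33469 promoters. These were Axin2, Dkkl1 and Tcf7, where the match begins 4 bases before the start and runs past it. The stretches of Axin2 (chr10:94398613-94398699, plus strand) and Dkkl1 (chr1:104835854-104835940, minus strand) are shown because both genes were among the 7, with opposite signs. The capitals mark the match, which begins 132 bases before the start in Axin2 and 189 before it in Dkkl1.
Axin2: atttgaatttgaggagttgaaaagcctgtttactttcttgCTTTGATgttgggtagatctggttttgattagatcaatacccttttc
Dkkl1: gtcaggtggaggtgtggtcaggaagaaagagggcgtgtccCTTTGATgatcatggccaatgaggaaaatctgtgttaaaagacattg
A match of letters is a description and says nothing on binding in these cultures.

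The other genes of the pathway, a list of 86 names that the member rule does not cover, had 80 genes on the array and gave 91 tested probes for 77 of them. Before adjustment, 11 (12.1%) had a limma p under 0.05, 7 higher and 4 lower in ACE, against 16.6% of all probes, and none passed the adjustment (lowest adjusted limma p 0.143). Over the 91 probes the median difference was 0.0060, with 48 higher and 43 lower. The genes named next are those of lowest p and do not stand for the list. Tspan12, a membrane partner of the norrin receptor complex, was lower in 6 of 6 pairs by 0.14 (exact signed-rank p = 0.03125, unadjusted limma p = 0.00104). Sp5, a transcription factor known as a target of beta-catenin signalling, was higher in 6 of 6 pairs by 0.23 (exact signed-rank p = 0.03125, unadjusted limma p = 0.00550), from 4.61, 5.21 and 5.66 in control to 5.05, 5.41 and 5.69 in ACE. With the 75th percentile scaling it was 0.10 higher, short of the unadjusted threshold, and with normexp 0.084 higher and still under it. Nkd2, an inhibitor that binds Dishevelled, was higher in 6 of 6 pairs by 0.12 (exact signed-rank p = 0.03125, unadjusted limma p = 0.00881), whereas its other probe differed by -0.11. Mapk8, the stress kinase JNK1, was higher by 0.22 and Invs, inversin, by 0.13, each in 5 of 6 pairs. Mapk8 differed by 0.085 under the 75th percentile scaling and 0.057 with normexp, both short of the unadjusted threshold, and its other probe differed by 0.048.

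Over the 6 pairs, the mean level of a pair varied more than its ACE minus control difference did in most members. Each pair is a culture experiment and also a slide, and pairs 1, 2 and 3 were each scanned apart, so that these cannot be told apart. For each of the 52 probes, the SD of the 6 pair means was set against the SD of the 6 ACE minus control differences. The ratio of these SDs is 0.5 for unrelated arrays of equal variance. Their medians were 0.39 and 0.17 on the log2 scale, the median ratio was 2.19, and the SD of the pair means was the higher in 45 of 52 probes (86.5%). Over all probes tested the medians were 0.29 and 0.13, the median ratio 2.07 and the share 84.0%, so the pattern was that of the array and not peculiar to Wnt genes. Among pairs 4 to 6, which were scanned together, the median ratio was 1.05 over members and 1.23 over all probes.

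**Figure D3:**
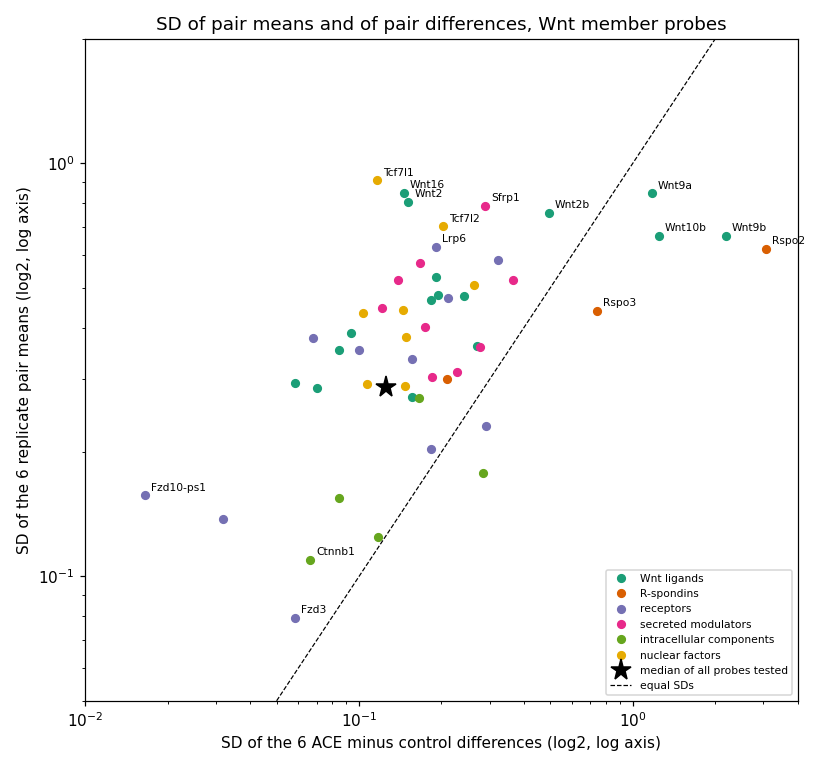
SD of the 6 replicate pair means against the SD of the 6 ACE minus control differences for the 52 tested member probes, both on log axes in log2 units, coloured by role. Points above the dashed line had the higher SD in the pair means, as 45 of 52 did, and the star marks the medians over all probes tested.

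The members most spread between pairs were the upstream Tcf7l1 probe (SD of pair means 0.91), Wnt16 (0.85), Wnt9a (0.85), Wnt2 (0.81) and Sfrp1 (0.79). They are named after their values were seen. Wnt9a, well above background on 1 control and 3 ACE arrays, varied still more in its pair differences (SD 1.17). Wnt16, a ligand studied mainly in bone and lymphoid cells, read 6.15 and 5.90 in the control and ACE arrays of pair 1 and 8.31 and 8.47 in those of pair 6. Wnt2 likewise read 5.07 and 4.88 in pair 1 and 7.08 and 7.20 in pair 6. Each of these 2 ligands was lowest in pair 1 and highest in pair 6 in both groups. In the same pairs the mean log2 level of the astrocyte list was 14.16 and 14.11 in pair 1 and 13.04 and 13.01 in pair 6, its highest and lowest values, and that of the granule neuron list was 7.53 and 7.87 in pair 1, its lowest. The oligodendrocyte list, at 13.79 and 13.86, and the microglia list, at 12.57 and 12.63, were highest in pair 6 in both groups, against 13.01 and 12.97 and 12.26 and 12.61 in pair 1. The part of these cell types in the levels of Wnt2 and Wnt16 was not tested.

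Pair 3 stood out for other members. Wnt1 read 6.72 in both arrays of pair 3, and 7.87 to 8.41 in the other control arrays and 7.73 to 8.11 in the other ACE arrays. Sfrp2 read 7.61 and 7.81 in pair 3, and at least 8.70 and 8.79 elsewhere. Over the 52 probes, the same replicate was highest in both groups in 30 and lowest in both in 37, against 67.3% and 66.1% of all probes (57.7% and 71.2% of members). Pair 1 was the highest in 11 and the lowest in 12, pair 3 the highest in 7 and the lowest in 11, and pair 5 neither in any. For pair 1 these were 21.2% and 23.1% of members against 24.02% and 20.5% of all probes, for pair 3 13.5% and 21.2% against 16.1% and 17.4%, and for pair 5 none against 3.99% and 5.17%.

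**Figure D4:**
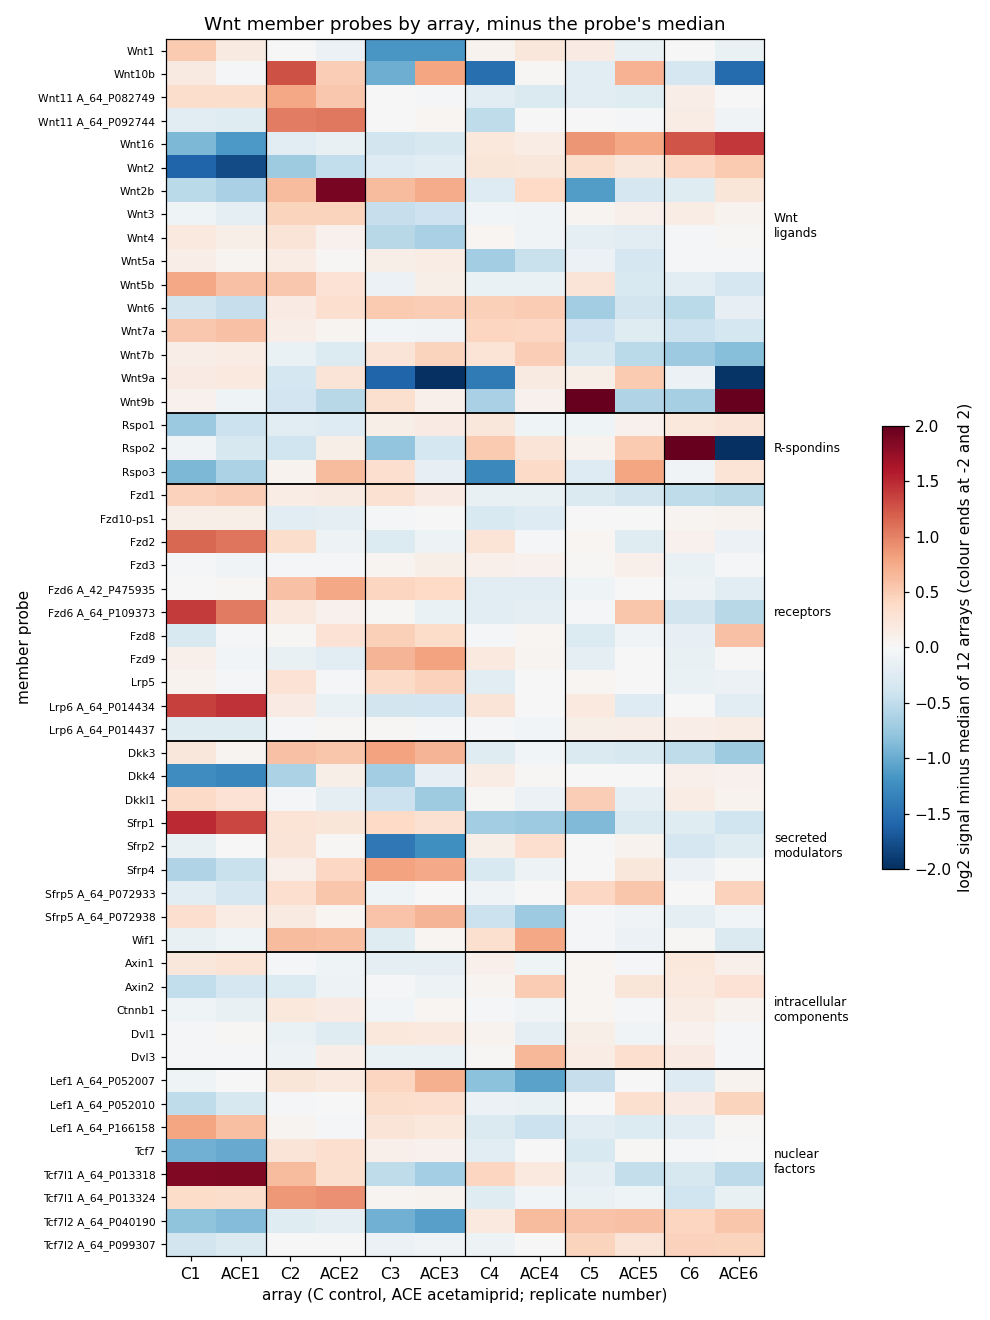
Log2 signal of the 52 tested member probes (rows, grouped by role) on the 12 arrays (columns, control and ACE of each replicate pair side by side), minus each probe's median. Both arrays of a pair often share a colour, with Tcf7l1, Lrp6 and Fzd2 high in pair 1, Wnt1 and Sfrp2 low in pair 3, and single dark cells for Wnt9b and Rspo2.

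The spread of Tcf7l1 and Lrp6 between pairs belonged mostly to their upstream probes. The upstream Tcf7l1 probe read 10.74 and 10.76 in pair 1 and 8.22 to 9.52 elsewhere, whereas the downstream probe read 9.0 and 8.99 in pair 1, within its range of 8.24 to 9.56. The upstream Lrp6 probe read 11.12 and 11.20 in pair 1 and at most 10.01 elsewhere, whereas the downstream one read 8.79 and 8.80 in pair 1, its lowest. The signed gap, upstream minus downstream probe, was therefore followed by array, less the gene's mean over the 12 arrays. This measure was chosen after these values were seen, and is given as a description.

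Of the 6 member genes with such a pair of tested probes, 4 were far above their mean in pair 1. In its control and ACE arrays Lrp6 was at 1.44 and 1.51, Tcf7l1 at 1.4 and 1.43, Fzd6 at 1.36 and 0.98, and Lef1 at 1.31 and 0.92. Wnt11 was at 0.59 in both, and Tcf7l2 went the other way, at -0.28 and -0.42. Over 2002 other genes with probes 238 to 15111 bases apart, the median on the same arrays was 0.048 and 0.043 and the upper decile 0.64 and 0.59. The signed gap thus stood above the upper decile of other genes in 4 of 6 members in the control array of pair 1 and, with Wnt11 at 0.592 against 0.587, in 5 of 6 in its ACE array. Sfrp5 was left out, as the strand of its probes was not that of RefSeq. Lef1 was followed with the first of its overlapping probes, which read 6.82 and 6.63 in pair 1, its highest in each group. The second read 4.17 and 4.26 there, within its range of 3.18 to 4.97 over the 12 arrays. The place of Lef1 above the decile was thus read with the first probe only.

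Between exposures the signed gap was lower in ACE in 5 of these 6 genes, by 0.29 in Tcf7l1, 0.20 in Lrp6, 0.18 in Lef1, 0.13 in Wnt11 and 0.059 in Fzd6, and higher by 0.072 in Tcf7l2. Of the 6 pairs it was lower in 5 in Tcf7l1, 4 in Lrp6, 6 in Lef1, 3 in Wnt11, 4 in Fzd6 and 2 in Tcf7l2. Over the 1975 of the other genes with a value on every array it was lower in 57.4%, with a median change of -0.021, and the median over those genes was lower in ACE in 5 of 6 pairs (exact sign-flip permutation over pairs, two-sided p = 0.156). The change came from different sides, as in Lrp6 it was the upstream probe that read lower (-0.20, downstream 0.0026), while in Lef1 it was mostly the downstream probe that read higher (0.13, upstream -0.049). Upstream here was the first of the overlapping Lef1 probes. The second, over nearly the same stretch, differed by 0.14, about as much as the downstream probe. The lower gap of Lef1, and its place among the 5 genes, thus rest on which of these probes is taken. Over the other genes the change did not exceed the spread between pairs.

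**Figure D5:**
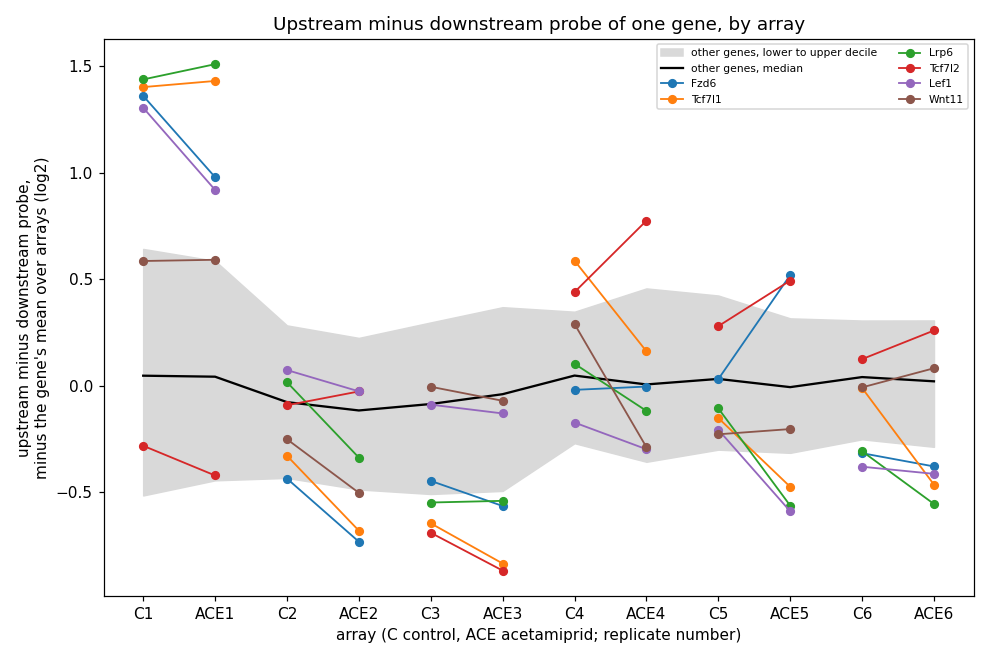
Upstream minus downstream probe on each array (log2, minus the gene's mean over 12 arrays) for 6 member genes, with a line joining the control and ACE array of a pair, and the median and the lower to upper decile of 2002 other genes in black and grey. Lrp6, Tcf7l1, Fzd6 and Lef1 lie between 0.92 and 1.51 in pair 1, above the upper decile of the other genes. Lef1 is drawn with the first of its overlapping probes as upstream.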

How the data were processed

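The 12 arrays were 1-colour Agilent 4x44k rat arrays, 6 control and 6 ACE, read by the authors with Feature Extraction 11.0.1.1 or 11.5.1.1. The deposited scanner files give for each spot an intensity, background-subtracted by that software, and carry coordinates of build rn4. The authors' deposited value table holds log2 values, quantile normalised and set against each probe's median per the study's methods (column medians -0.0201 to 0.0174); it correlated with the values used here, centred the same way, at r of 0.997 to 0.999 and served as an alternative.

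From the processed intensity the log2 was taken, control spots and flagged outlier spots (447 missing probe values) were left out, spots were quantile normalised and averaged per probe (1390 probes had 10 spots). Probes above the 20th percentile of their array on at least 7 of 12 arrays, with at least 4 complete pairs, were kept (23796 of 30367). limma 3.58.1 (R 4.3.3) was fitted to all of them with the replicate number as a block, with two-sided p and Benjamini-Hochberg adjustment over all. The numbers pair the samples because, per the study's methods, both cultures of a pair were plated from 1 cell lot; same-numbered arrays correlated at 0.449 to 0.912 and others at -0.439 to 0.390. An exact signed-rank test over the 6 pairs was the second test; the methods name a paired Mann-Whitney test, which was taken to mean this one. The fit was tested on simulated data. No spot was saturated, and the number of arrays limits the precision.

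Alternatives were a 75th percentile shift, normexp background (offset 50), the deposited table, other filters, no or a random replicate block, pairs 4 to 6 alone, each pair left out, averaged probes of a gene, and other forms of the rank test. Values by array are given for up to 12 member probes with the lowest unadjusted limma p under 0.05, for 16 genes fixed for their role (Wnt3, Wnt5a, Wnt7a, Wnt7b, Fzd3, Fzd4, Lrp5, Lrp6, Sfrp1, Sfrp2, Dkk3, Rspo1, Axin2, Lef1, Tcf7l2 and Ctnnb1, brightest probe), and for genes whose probes differed in sign with 1 of them under 0.05; of the other pathway genes the 5 with the lowest p are named. The members and lists were chosen with earlier results of these data known. Probe positions relative to exons are not given, as no genome of build rn4 was used here. The probe sequences of Tcf7l1 are not reported here.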

Additional observations from a re-analysis of the deposited data

Results flagged for a closer look

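In the 104 groups of 6 arrays formed by the 52 tested member probes, 19 arrays of 14 genes stood apart from their group by Dixon's criterion (18.3%), where chance flags about 5% and the same criterion flagged 8.51% of such groups over all probes tested. Of these, 6 belonged to pair 1. No cause was tested. In pair 1 they were Fzd2 in ACE at 10.03, the Fzd6 upstream probe in control at 8.55, the Lrp6 upstream probe at 11.12 in control and 11.20 in ACE, all high, and Dkk4 at 2.65 and Tcf7 at 5.31 in ACE, both low. In pair 3, Wnt1 was low at 6.72 in control and 6.72 in ACE and Sfrp2 low at 7.61 and 7.81, while Fzd9 at 8.10 and Lrp5 at 9.26 were high in ACE. In Lrp6, Wnt1 and Sfrp2 both arrays of the pair stood apart in the same direction. The others were Wnt11 (downstream probe) in ACE 2 at 6.73 and Wnt9b in control 5 at 8.78 and in ACE 6 at 8.33, all high, and Wnt5a in control 4 at 7.67 and Wnt10b in ACE 6 at 2.42, both low. For Rspo2, both arrays of pair 6 stood apart in opposite directions, with control 6 high at 8.79 and ACE 6 low at 1.5.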

How the results depend on the processing

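No member probe passed the adjusted threshold under any alternative. Without the replicate block, 0 member probes and 1 probe of the other pathway list were under an unadjusted limma p of 0.05, in place of 7 and 11, as were 81 of all probes. With each pair left out the member count was 5 to 10 (9.62% to 19.2%, against 11.8% to 17.5% of all probes) and the other pathway count 7 (without pair 4) to 18 (without pair 3). The median member difference of 0.0088 was -0.039 under the 75th percentile shift, where that of all probes was -0.034, and lay between -0.019 (without pair 4) and 0.023 (without pair 1) with a pair left out. The ratio of spreads, 2.19, was 1.05 within the scan batch of 3 pairs. The signed-rank count of 3 was 8 by the normal approximation (4591 of all probes), and 0 after Benjamini-Hochberg (lowest 0.270), with Storey q (0.191) and with both the approximation and Storey q (0.140); with a pair left out, or in 3 pairs, this test cannot go under 0.05 and was not run.

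Of 308 named values under an alternative, 28 turned in sign, all but 1 of them without passing the threshold on either side. Under the 75th percentile shift these were Sfrp1 at -0.086, Rspo1 at -0.028 and the downstream Lrp6 probe at -0.024. With normexp they were Wnt5a at 0.026, Wnt7a at -0.0064, Wnt7b at 0.011, Sfrp1 at -0.015, Tcf7l2 at -0.0097 and Lrp6 downstream at -0.020, and in the deposited table Wnt3 at 0.00097. In pairs 4 to 6 they were Wnt5a at 0.0092, Lrp5 at 0.064, Rspo1 at -0.025, Tcf7l2 at -0.033 and Lrp6 downstream at -0.00050. With a pair left out, the ranges that crossed zero were -0.075 to 0.034 for Lrp5, -0.0063 to 0.010 for Lrp6 downstream, -0.011 to 0.11 for Rspo1, -0.099 to 0.054 for Sfrp1, -0.021 to 0.039 for Tcf7l2, -0.027 to 0.0027 for Wnt3, -0.079 to 0.012 for Wnt5a and -0.058 to 0.031 for Wnt7b.
The named values kept their side of the threshold in 270 cases, 31 lost it and 7 gained it, 1 of these with its sign turned, 7 of the losses with no replicate block, and the cause was not tested. Dim probes limit Wnt2b, Rspo3, Wnt9a and Wnt10b, whose intervals are the widest beside those of Rspo2 and Wnt9b.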

Other observations

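Beyond the 5 already named, 6 probes of the other pathway list were under an unadjusted limma p of 0.05, given here after their values were seen. Bcl9l, a co-factor that binds beta-catenin, was higher in ACE in 6 of 6 pairs by 0.43 (exact signed-rank p = 0.03125, unadjusted limma p = 0.0291), Aes, a short Groucho-type co-repressor, was higher in 5 pairs by 0.24, and Cxxc4, an inhibitor that binds Dishevelled, was higher in 6 pairs by 0.068. Wls, the carrier that takes Wnt ligands to the cell surface, was lower in 6 of 6 pairs by 0.095 (exact signed-rank p = 0.03125, unadjusted limma p = 0.0173), as was Ndp, which encodes norrin, a Fzd4 ligand outside the Wnt family, by 0.088 (exact signed-rank p = 0.03125, unadjusted limma p = 0.0299). Amer1, a component that binds Apc at the membrane, was lower in 5 pairs by 0.18. None passed the Benjamini-Hochberg adjustment over all probes.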
